A study of Homo sapiens with 3 samples.

Results

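The genes described here encode the subunits and assembly factors of the proteasome. They were taken as the protein-coding genes whose symbols begin with PSMA to PSMG and a number, leaving out PSMB8 and PSMB9, which gave 47 of the 58735 genes counted. The pattern takes in 1 gene that is not of the proteasome, PSMC3IP, a cofactor of recombination in meiosis, so 46 members are proteasome genes. RNA was sequenced after poly(A) selection from RPE-1 cells, an immortalised human retinal pigment epithelial line, in a study of the RNA-binding protein Unkempt and centriole overduplication. All cells carried a GFP tag on centrin to mark centrioles and a PLK4 gene driven by the rtTA system through doxycycline. Each of the 3 libraries came from cells given a scramble siRNA and no PLK4 induction, so there is 1 group and no comparison between conditions. Whether they stem from different cultures is not stated, so p-values between libraries describe variation among these 3 samples that could be technical.

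The proteasome degrades proteins that carry ubiquitin chains. Its core particle is a barrel of stacked rings, in which alpha subunits form the outer gates and beta subunits the inner chamber with the proteolytic sites. The regulatory particle caps the barrel: its lid and receptors take up and deubiquitinate the substrate, and its ring of ATPases unfolds it and threads it inside. In cells exposed to interferon, the catalytic beta subunits are exchanged for immunoproteasome forms.

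Library totals were 49279692, 60040029 and 46625774 counts in libraries 1, 2 and 3. Library 1 stood apart. Over all tested genes the SD of its log2 ratio was 0.70 to library 2 and 0.72 to library 3, against 0.36 between libraries 2 and 3. The same SD over the members was 0.25, 0.20 and 0.13. Such an SD is larger at low counts, and the members and all tested genes were not matched for level. Of the fixed pigment epithelium markers, BEST1, OTX2, MITF and PMEL reached the detection limit, whereas RPE65 had 8, 6 and 0 counts and TYR had none. Levels below are given as CPM, TMM-scaled counts per 1e6, and, to compare genes, as RPKM, which is CPM per kb of annotated exon.

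The sequences that define the proteolytic sites are shown first, since the constitutive and tissue-restricted forms of each site are compared below. Each line gives 36 coding bases from the GENCODE transcript with the longest coding sequence, with the codon of the catalytic threonine, which becomes the first residue of the mature subunit, in capitals.
PSMB5: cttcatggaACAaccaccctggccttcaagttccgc
PSMB8: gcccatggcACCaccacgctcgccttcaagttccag
PSMB11: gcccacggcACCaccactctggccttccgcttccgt
PSMB6: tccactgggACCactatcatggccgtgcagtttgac
PSMB9: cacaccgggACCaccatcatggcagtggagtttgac
PSMB7: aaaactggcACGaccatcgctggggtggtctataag
PSMB10: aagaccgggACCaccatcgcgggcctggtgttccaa
The threonine is codon 60 in PSMB5 and codon 21 in PSMB9, so the propeptides that precede it differ in length. Over these windows PSMB8 shared 27 of 36 bases and PSMB11 25 of 36 with PSMB5, PSMB9 shared 30 of 36 with PSMB6, and PSMB10 shared 24 of 36 with PSMB7.

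RNA of nearly all proteasome genes was detected. Of the 47 members, 45 had a CPM of at least 1 in each library (95.7%), against 57.7% of the 19951 protein-coding genes. The median level of the detected members was 20.2, 20.1 and 22.0 RPKM in libraries 1, 2 and 3, and 21.1 RPKM over the library means, against 6.09 RPKM for all detected protein-coding genes. Among detected protein-coding genes, 40 of the 45 members lay above the median and 30 above the 75th percentile. Together the members took 0.459% ± 0.0233 (SD, n = 3) of all counts.

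**Figure D1:**
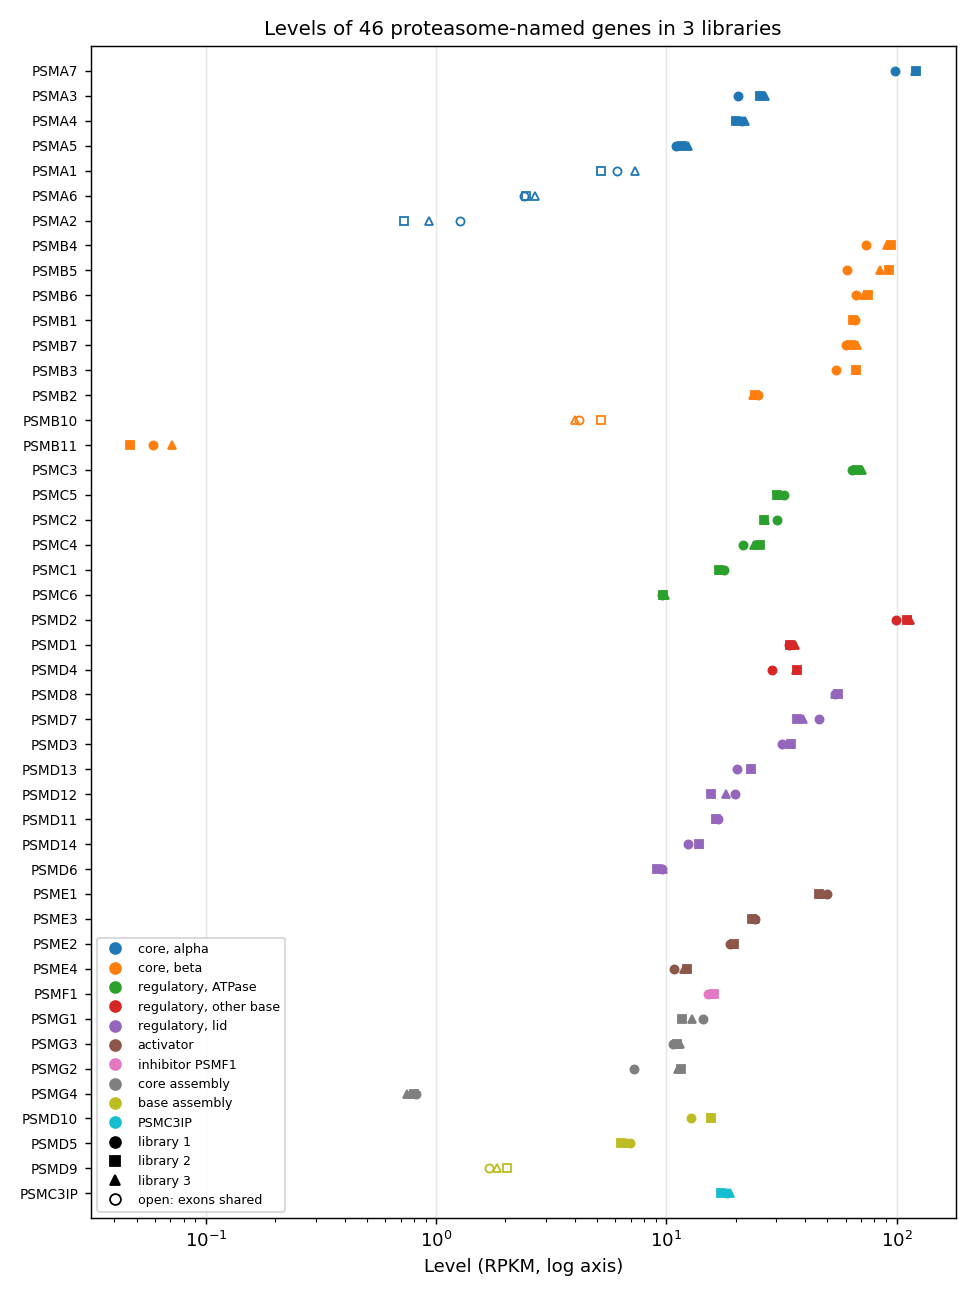
Level of each member with any count, in RPKM on a log axis, by role, with 1 symbol per library. Open symbols mark the 5 members that share exons with another gene. Most members lie between 10 and 113 RPKM, and the open symbols lie at the low end.

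The members not detected were the tissue-restricted subunits. PSMA8, the testis form of PSMA7, had no count in any library, with floors of 0.0618, 0.0494 and 0.0641 CPM (3 counts per library). PSMB11, the thymus form of PSMB5, had 6, 6 and 7 counts. Germ cell markers DDX4 and DAZL had at most 2 counts in a library, SYCP3 had 7, 2 and 0 counts, and the thymic regulator FOXN1 had none. PSMA7 was at least 3018-fold higher than PSMA8 per kb, computed against that floor. The coding sequences of PSMA7 and PSMA8 were 71.0% identical and their longest identical run was 18 bases.

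The beta ring spanned a narrower range than the alpha ring. Its 7 standard members ranged from 24.4 to 86.4 RPKM, with a median of 65.5 RPKM. The 3 catalytic members were close to one another. PSMB5, the chymotrypsin-like site, had 60.7, 92.7 and 84.9 RPKM in libraries 1, 2 and 3. PSMB6, the caspase-like site, had 66.4, 74.9 and 72.4 RPKM, and PSMB7, the trypsin-like site, had 60.3, 63.3 and 67.2 RPKM. Their means spanned 1.248-fold, and the libraries of the 3 genes overlapped. Among the subunits without a proteolytic site, PSMB4 was highest at 86.4 ± 11.2 RPKM and PSMB2 lowest at 24.4 ± 0.627 RPKM (SD, n = 3). PSMB1 and PSMB3 averaged 65.5 and 62.5 RPKM.

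In all 3 libraries the constitutive catalytic subunits were above their immunoproteasome forms. PSMB8, the form of PSMB5, had 15.4, 18.4 and 18.3 RPKM. PSMB9, the form of PSMB6, had 5.80, 4.28 and 4.31 RPKM. PSMB10, the form of PSMB7, had 4.17, 5.19 and 4.003 RPKM. No library of an immunoproteasome gene overlapped its constitutive partner. The ratio was 4.52-fold for PSMB5 over PSMB8 (log2 2.17 ± 0.18), 14.98-fold for PSMB6 over PSMB9 (3.91 ± 0.34) and 14.4-fold for PSMB7 over PSMB10 (3.84 ± 0.23, SD, n = 3 each). With the length of the longest-coding transcript these ratios were 2.31, 6.48 and 17.2. The two-sided exact sign-flip test gave p = 0.25 for each, the smallest that 3 libraries allow, and 0.25 after adjustment over 13 pairs. Immunoproteasome forms made up 18.2% ± 1.84 of the summed RPKM at the chymotrypsin-like site, 6.35% ± 1.46 at the caspase-like site and 6.55% ± 0.977 at the trypsin-like site (SD, n = 3). With the longest-coding transcript these shares were 30.3%, 13.5% and 5.53%. Of the PSMB10 transcript, 45.3% lies in exons of another gene on the same strand, whereas PSMB8 and PSMB9 have no such overlap. The level of PSMB10 is therefore uncertain, and so are its ratio to PSMB7 and the share at the trypsin-like site. In bulk RNA, a low level in all cells and a higher level in fewer cells cannot be told apart. Of the blood cell markers reported here, CD3E and HBB had no count, CD74 had 31, 40 and 19 counts, and PTPRC averaged 2.06 CPM.

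**Figure D2:**
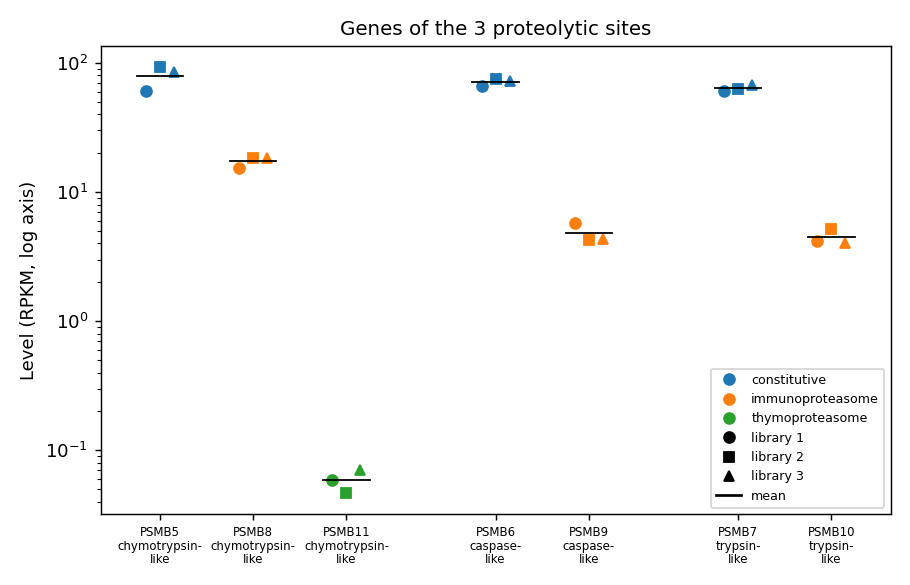
Level in RPKM on a log axis of the genes of the 3 proteolytic sites, with 1 symbol per library and a bar at the mean. Constitutive genes lie between 60.3 and 92.7 RPKM, immunoproteasome genes between 4.003 and 18.4 RPKM, and PSMB11 below 0.1 RPKM.

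The alpha ring spanned 117-fold by the same measure, 57.1-fold with the longest-coding transcript, and 9.70-fold over the 4 members that do not share exons. PSMA7 had 98.5, 121.7 and 120.0 RPKM and was the highest of all members, whereas PSMA2 had 1.26, 0.725 and 0.929 RPKM. PSMA1 averaged 6.21 RPKM and PSMA6 averaged 2.51 RPKM. PSMA3, PSMA4 and PSMA5 lay between 11.7 and 24.2 RPKM. The low values coincided with exon sharing: for PSMA1, PSMA2 and PSMA6, 59.5%, 52.5% and 80.3% of the longest-coding transcript lies in exons of another annotated gene on the same strand. The following 48 coding bases of each also stand in a transcript of the overlapping gene, AC018523.2 for PSMA1, AC010132.3 for PSMA2 and AL121594.1 for PSMA6.
PSMA1: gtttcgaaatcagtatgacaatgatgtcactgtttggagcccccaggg
PSMA2: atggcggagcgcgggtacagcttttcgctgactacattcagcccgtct
PSMA6: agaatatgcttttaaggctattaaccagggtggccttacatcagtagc
Such stretches covered 89.0%, 100% and 88.0% of the coding bases of PSMA1, PSMA2 and PSMA6. These 3 overlapping genes themselves had at most 6 counts in a library. PSMB10 (45.3% shared) and the base assembly factor PSMD9 (43.8% shared) were the other members with at least 40% of the transcript shared. The 5 had a median of 16.3 CPM, against 103 CPM for the 41 members that share none. Among all protein-coding genes, 24.1% of the 1313 with at least 40% shared were detected, against 59.4% of the 17253 with none. The 1313 were not split into little-expressed overlapping genes, such as the 3 above, and the genes they overlap. How reads in shared exons were counted is not given in the sources used here, so the levels of these 5 genes are uncertain and the part of exon sharing in them was not tested.

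**Figure D3:**
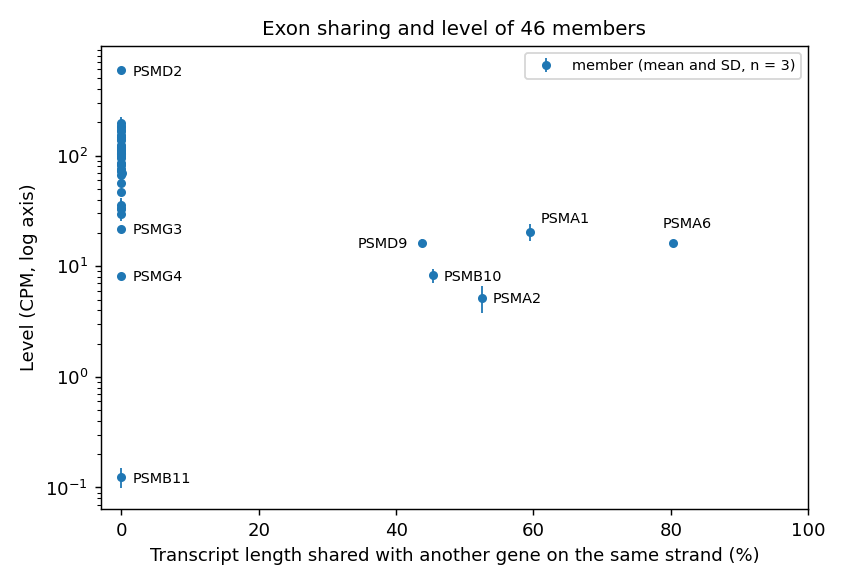
Mean level in CPM (log axis, bars are SD, n = 3) against the percent of the longest-coding transcript shared with a second gene in the same orientation, for members with any count. The 5 members at 43.8% or more all lie at or below 20.5 CPM.

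In the regulatory particle, all 17 members were detected, from 9.45 to 108 RPKM. The large scaffold subunits of the base differed: PSMD1 had 34.2, 34.6 and 36.2 RPKM, and PSMD2 had 99.4, 110.8 and 114.2 RPKM. PSMD1 was thus below PSMD2 in each library (log2 -1.63 ± 0.08, SD, n = 3), and the exact sign-flip p was 0.25. Among the 6 ATPases PSMC3 was highest at 67.3 ± 3.12 RPKM and PSMC6 lowest at 9.69 ± 0.128 RPKM (SD, n = 3). PSMC5, PSMC2, PSMC4 and PSMC1 averaged 31.1, 27.9, 23.7 and 17.3 RPKM. With the longest-coding transcript PSMC3 stayed highest at 97.0 RPKM, but PSMC1 was lowest at 23.9 RPKM and PSMC6 had 33.1 RPKM. Among the 8 lid members PSMD8 was highest at 54.6 RPKM and PSMD6 lowest at 9.45 RPKM. With the longest-coding transcript PSMD8 stayed highest at 109 RPKM, but PSMD12 was lowest at 21.8 RPKM and PSMD6 had 57.7 RPKM. Of the other lid members, PSMD3, PSMD13, PSMD12 and PSMD11 averaged 33.6, 22.3, 17.9 and 16.5 RPKM. PSMD14, the lid deubiquitinase, averaged 13.4 RPKM and its partner PSMD7 40.9 RPKM. The ubiquitin receptor PSMD4 averaged 34.1 RPKM. PSMD14 was 2.48-fold above UCHL5, a second deubiquitinase of the particle, and had a log2 ratio of -0.81 ± 0.07 to USP14, the third (SD, n = 3). PSMD4 had a log2 ratio of -0.57 ± 0.22 to ADRM1, another ubiquitin receptor. The ratios to USP14 and ADRM1 turned to 0.89 and 0.13 with the longest-coding transcript, so their order is not settled by these counts.

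The medians of core and regulatory members were close on this scale. The difference of medians, core minus regulatory, in log2(RPKM + 0.1), was -0.19, -0.07 and 0.00 in libraries 1, 2 and 3, with an exact sign-flip p of 0.5. It turned to 0.42 with the length of the longest-coding transcript and to 1.22 without the 5 members that share exons, so its direction depended on the annotated length and on those members. For comparison, the 8 subunits of the TRiC chaperonin, a ring that folds actin and tubulin, spanned 1.81-fold (46.1 to 83.3 RPKM). The 10 genes listed for the COP9 signalosome, a relative of the lid, spanned 9.74-fold (5.78 to 56.3 RPKM). These genes include the paralogues COPS7A and COPS7B, so they are not 10 separate positions in the complex. The beta ring spanned 3.54-fold, the lid 5.77-fold and the ATPases 6.95-fold. With the longest-coding transcript the spans were 4.42-fold for the beta ring, 5.01-fold for the lid, 4.05-fold for the ATPases, 2.13-fold for TRiC and 5.91-fold for the COP9 signalosome, so the order of the beta ring and the ATPases turned. These spans were not tested against each other.

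**Figure D4:**
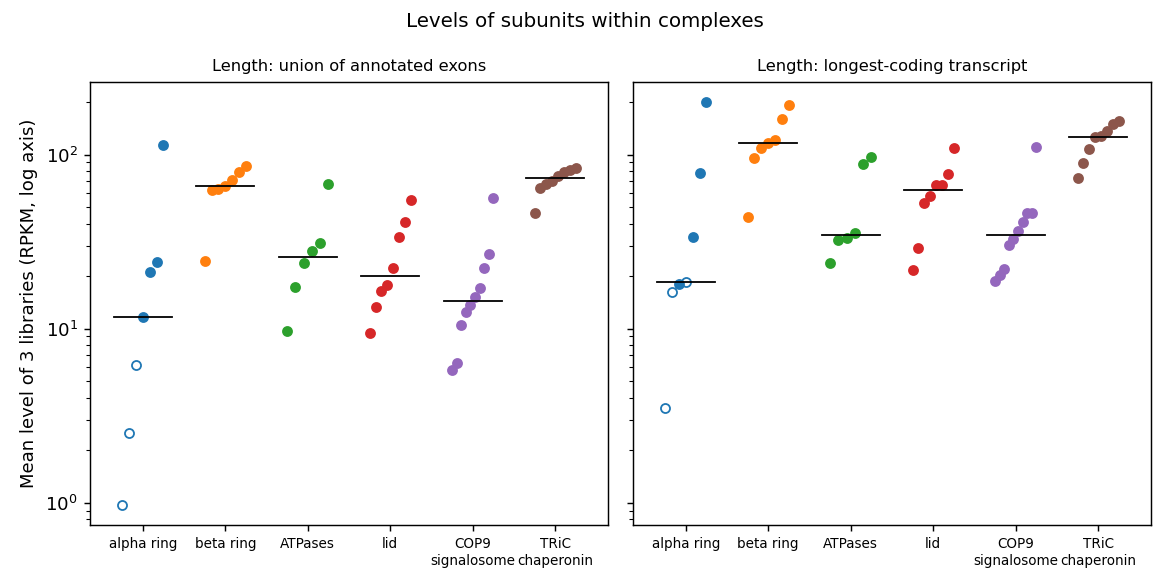
Mean RPKM (log axis) of each subunit gene of 4 proteasome rings or subcomplexes, the COP9 signalosome and the TRiC chaperonin. Bars mark the median and open points mark genes that share exons. The left panel uses the union of exons and the right panel the longest-coding transcript, and TRiC has the narrowest span in the left panel.

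The 4 activators had a median of 21.7 RPKM, close to that of the detected members, and ranged from 11.6 to 47.6 RPKM. With the longest-coding transcript their median was 57.0 RPKM, against 39.3 RPKM for the detected members. The assembly factors had a lower median than the members with either length, 15.1 RPKM with that transcript. PSME1 and PSME2, which form an interferon-inducible cap, averaged 47.6 and 19.3 RPKM, a ratio of 2.46-fold that turned to 0.94 with the longest-coding transcript. PSME3, a nuclear cap, averaged 24.0 RPKM, PSME4 averaged 11.6 RPKM (2.07-fold, PSME3 over PSME4) and the inhibitor PSMF1 averaged 15.6 RPKM. The 7 assembly members had a median of 10.02 RPKM. PSMG1 and PSMG2, which pair to build the alpha ring, averaged 13.0 and 10.02 RPKM, and PSMG3 and PSMG4, a second such pair, 11.1 and 0.787 RPKM. PSMG3 over PSMG4 was 14.1-fold per kb of exon union but 1.20-fold with the longest-coding transcript. PSMD10, PSMD5 and PSMD9, which chaperone the base, averaged 14.7, 6.69 and 1.85 RPKM. PSMC3IP, outside the proteasome, averaged 18.2 RPKM.

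Genes that work with the members were also present. POMP, the maturation factor of the core, had 39.99, 52.5 and 59.5 RPKM, lowest in library 1. All 12 other proteasome genes of the fixed list, POMP, PSMB8 and PSMB9 included, were detected, with a median of 16.0 RPKM. All 13 ubiquitin and shuttle genes were detected, with a median of 53.8 RPKM, as were all 7 regulators, with a median of 12.9 RPKM, and all 13 genes of antigen processing and interferon response, with a median of 14.8 RPKM. The chi-square test described below called 12 of the 13 ubiquitin and shuttle genes. By the sign of library 1 minus the mean of the others, 9 of them were lower in library 1 and 3 higher. Of all genes tested, 37% were called and lower, and 31.6% were called and higher. NFE2L1, the factor that raises proteasome genes when proteasome activity is low, averaged 75.2 RPKM. The letters TGACNNNGC, the core of the element bound by NFE2L1 with small MAF partners, stood on either strand in 14 of the 41 members with a RefSeq promoter (a window of 300 bases around the start). That is 34.1%, against 19.4% of 9271 detected protein-coding genes counted per gene in the same way, and 13.3% of all 35116 promoters, counted per promoter. The motifs were chosen after a first look at several. On either strand, TTCCGG stood in 56.1% of members and 36.0% of detected protein-coding genes, and CCAAT in 48.8% of members and 43.8% of those genes. GGGCGG stood in 68.3% of members and 78.1% of detected protein-coding genes, and TATAAA in 12.2% of members and 7.99% of those genes. The windows below, on GRCh38.p14 and the gene's strand, belong to the 4 members with the highest RPKM among those with a match upstream of the start on that strand, and capitals mark the match.
PSMB3 (chr17:38752627-38752655): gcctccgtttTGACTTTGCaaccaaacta
PSME1 (chr14:24136098-24136126): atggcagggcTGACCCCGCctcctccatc
PSMD3 (chr17:39980760-39980788): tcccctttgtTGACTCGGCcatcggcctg
PSMA4 (chr15:78540650-78540678): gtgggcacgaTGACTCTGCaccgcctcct
A match is a description of letters and shows no binding.

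Most members, like most genes tested, varied between libraries by more than counting noise. A chi-square test of each gene's counts against counting noise called 36 of 45 members (80.0%), against 68.6% of 16293 genes tested. Of the 12914 protein-coding genes tested, 73.7% were called. The detected members had a median of 98.9 CPM, against 33.0 CPM for detected protein-coding genes. The test calls smaller shifts at higher counts, and these shares were not matched for level. Without library 1 the test called 15 of 45 members (33.3%), against 28.1%. Among the 36 called members, library 1 was the farthest from the others in 26, library 2 in 7 and library 3 in 3. This split was not counted over all called genes, and library 1 also stood apart over all tested genes. The test has no direction, so direction was taken from the sign of library 1 minus the mean of the others. By that sign 23 of the 36 were lower in library 1 (51.1% of those tested, against 37% of all genes) and 13 higher (28.9%, against 31.6%). Of the called members 63.9% were thus lower in library 1, against 53.9% of all called genes. With library totals unscaled the split was 27 lower and 5 higher, or 84.4% lower, against 59.5% of all called genes. When each gene was allowed an extra coefficient of variation of 0.05, 12 members were called (26.7%, against 32.7%), 9 lower in library 1 (20%, against 16.5%) and 3 higher (6.67%, against 16.1%). With that allowance 4071 of the 12914 protein-coding genes tested were called, and the shares were not tested against each other. At any size, 28 of 45 members were lower in library 1 (62.2%, against 52.4%).

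The largest deviations of library 1 below the others were in PSMG2, PSMB5 and PSMD4. PSMG2 had 24.3, 38.7 and 37.9 CPM in libraries 1, 2 and 3, and library 1 minus the mean of the others was -0.64 on the log2(CPM + 0.5) scale (chi-square adjusted p = 1.13e-41). PSMB5 had 107, 164 and 149.9 CPM (-0.55, chi-square adjusted p = 3.55e-137), and PSMD4 86.6, 112 and 110.9 CPM (-0.36, adjusted p = 3.45e-43). In all 3 genes library 1 lay below both others. PSMA3, PSMB4, PSMA7, PSMB3, PSMB10 and PSMA1 were the other members called as lower with the allowance, although for PSMA1 and PSMB10 library 1 was not the one farthest from the others. The lid members PSMD7, with 127, 101.2 and 108 CPM, and PSMD12, with 107, 84.2 and 97.3 CPM, were instead highest in library 1, as was PSMA2, with 6.74, 3.87 and 4.96 CPM. By role, 8 of 15 core members, 3 of 17 regulatory members and 1 of 7 assembly members were called with the allowance, against 32.7% of all genes, and these shares were not tested against each other. Of the 8 core members, PSMA1, PSMA2 and PSMB10 share exons, and 5 of the 11 that do not share them were called. PSMB1 had the smallest ratio of highest to lowest library, 1.02, with 149, 146 and 148 CPM (chi-square adjusted p = 0.536). In 19 members the highest library was less than 1.1 times the lowest.

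**Figure D5:**
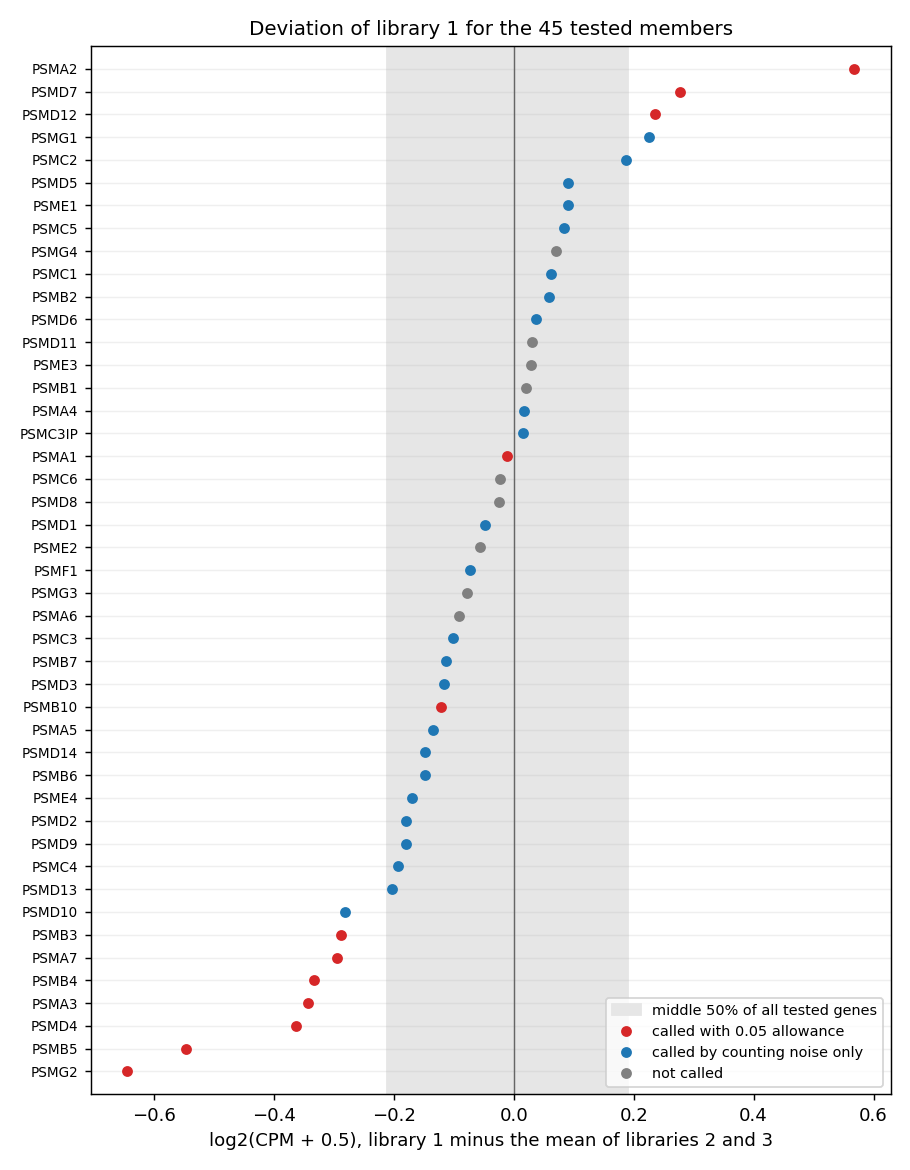
Library 1 minus the mean of libraries 2 and 3, in log2(CPM + 0.5), for the 45 tested members, coloured by chi-square call. The members' median is -0.07, against -0.02 for all tested genes, whose middle range is shaded, and PSMG2 and PSMB5 lie farthest to the left.

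Members lie on 17 chromosomes, with 8 each on chromosomes 14 and 17. On chromosome 14, PSME1 (24136158 to 24138967) and PSME2 (24143362 to 24147570) lie close together, as do PSMB5 (23016543 to 23035230) and PSMB11 (23042167 to 23044276), on hg38 by GENCODE. The 32 annotated pseudogenes of members had 644 counts in all, 0.0899% of the 716431 counts of the members, and 21 of them had none. Reads of near-identical copies could not be assigned with certainty. PSMC1, PSMC3IP and PSMD7 overlap genes on the opposite strand over 82.1%, 54.4% and 50.4% of the transcript, and since the strand setting is not given, reads of the partners cannot be told apart there.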

How the data were processed

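Poly(A) RNA from 3 libraries of 1 group was sequenced, and the authors deposited whole-number counts of reads per gene, not normalised, for 58735 genes. The submitters' processing notes list featureCounts 1.6.2, STAR 2.5.2a and cutadapt 1.16 with hg38, and no settings. How strands, overlapping genes and multiply aligned reads were handled is not given in the sources used here. A further 6 per-sample columns had no matching label and were not used.

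All gene IDs matched GENCODE release 29, which gave positions and exon lengths. CPM was computed on totals scaled by TMM factors (edgeR 4.0.16, R 4.3.3), and RPKM by dividing CPM by the union of a gene's exons in kb. The transcript with the longest coding sequence gave the other length. For spread between libraries, a chi-square test set each gene's 3 counts against the scaled totals (2 degrees of freedom), Benjamini-Hochberg adjusted over the 16293 genes whose mean count reached 10, at a threshold of 0.05. Differences within libraries were tested with two-sided exact sign-flip tests, whose smallest p with 3 libraries is 0.25. Floors are 3 counts per library and cover counting error only. The chi-square script was tested on simulated data, and Python 3.11.15 with scipy 1.17.1 was used.

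The alternatives tried were DESeq2 1.42.0 size factors or no factors, other filters, pseudocounts, lengths and detection limits, an extra coefficient of variation, each library left out and, added after the values were seen, the members with shared exons left out and the other length for shares and spans. The members, lists and pairs were chosen with earlier results of these data known. The rule for named genes took every member and the genes of the fixed lists, with pseudogenes and antisense genes counted together. The genes that overlap members, the limits of 40% for exon sharing and the other limits on levels, and the promoter motifs were chosen after values were seen. 1 marker gene of the fixed lists is not reported here.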

Additional observations from a re-analysis of the deposited data

How the results depend on the processing

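No paired analysis was possible because the labels give 1 group. The count of 45 detected members was the same under both scalings, detection limits of 0.5 and 2 CPM and each library left out. The 36 members with a spread beyond counting noise became 12 with an extra coefficient of variation of 0.05 and 1 with 0.1, since both add to the error allowed, and ranged from 15 to 34 with 1 library left out, 15 being without library 1. The median level of the detected members of 21.1 RPKM became 39.3 RPKM with the length of the longest-coding transcript, 98.9 CPM without length and 23.9 RPKM without the 5 members that share exons.

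The core particle minus regulatory particle difference of -0.08 (log2) turned to 0.42 with the longest-coding transcript, to 1.22 without the 5 members that share exons and to 0.84 with both. Of 78 settings over the 13 pairs, 73 kept the direction. With the longest-coding transcript the log2 ratio turned to -0.088 for PSME1 over PSME2, -0.37 for PSMG1 over PSMG2, 0.13 for PSMD4 over ADRM1 and 0.89 for PSMD14 over USP14, and without length to -0.018 for PSMG1 over PSMG2. The annotated length in use was all that changed there. At these depths a count of 0 allows up to 0.0618, 0.0494 and 0.0641 CPM in libraries 1, 2 and 3, which limits what can be said of PSMA8.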
